A study of Mus musculus with 15 samples.

Results

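The amyloid precursor protein family and the enzymes that cut it were described from 9 genes, found by symbol among the 22524 gene identifiers counted in each library, and all 9 passed the filter on low counts. They are the precursors App, Aplp1 and Aplp2, the alpha-secretase Adam10, the beta-secretase Bace1, and Psen2, Ncstn, Aph1a and Psenen, which encode parts of gamma-secretase. RNA was sequenced from 7 mice heterozygous for Rps9 D95N (1 mutant and 1 wild-type copy of a small ribosomal subunit gene) and from 8 wild-type littermates (WT), all female C57BL/6 mice aged 18 months. The series design names brain cortex and the sample labels name skeletal muscle as the tissue. Libraries are named by genotype and animal number, 1 library to an animal.

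The 3 precursors are membrane proteins with a large outer part and a short inner tail, abundant in neurons. ADAM10 cuts App within the amyloid-beta stretch and sheds the outer part, whereas BACE1 cuts at the start of that stretch. Gamma-secretase, a complex of a presenilin, nicastrin, an APH-1 protein and the presenilin enhancer PEN-2, then cuts the remaining stub within the membrane, and after a BACE1 cut this last step frees amyloid-beta. Aplp1 and Aplp2 are processed by the same kinds of enzymes but hold no amyloid-beta stretch. The study's title refers to early Alzheimer disease in aging mice, which is the setting for asking whether the transcripts of this pathway differ.

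The stretch of App that both first enzymes cut is shown because it is what sets App apart from its paralogues. It was read 5′ to 3′ in the sense of the transcript from App-201, the principal transcript of GENCODE M21, and the capitals mark the codons on either side of the beta cut and then of the alpha cut.
App, beta to alpha cut: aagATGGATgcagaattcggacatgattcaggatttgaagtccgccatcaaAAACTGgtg
The 2 cuts lie 48 bases apart in the coding sequence. Of the 60 bases shown, 57 lie in exon 14 of 16 (GRCm38 chromosome 16, 84965670 to 84965726, minus strand) and the last 3 in exon 15 (84962866 to 84962868). The transcript encodes 695 residues. The App residues that follow the 2 cuts, DAEF (beta) and LVFF (alpha), had 0 matches in the translated principal transcripts of Aplp1 and Aplp2. Both strings belong to the amyloid-beta stretch that these paralogues lack. The search therefore cannot show whether Aplp1 and Aplp2 hold cut sites of other sequence. Counts are per gene, so they give neither the splice forms of App nor the use of a cut.

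Total counts ran from 23349381 to 34052037 in D95N and from 28007441 to 34587082 in WT. Brain markers were abundant: the 8 neuronal markers summed to 7224 to 9066 CPM (read counts scaled by library size and TMM factors) in D95N and 7366 to 7945 CPM in WT, with 4 of the 8 higher and 1 lower in D95N (called throughout at a Benjamini-Hochberg adjusted p under 0.05 in edgeR's quasi-likelihood test). The 8 skeletal muscle markers summed to only 7.24 to 11.1 CPM in D95N and 7.91 to 31.2 CPM in WT, which goes against the tissue named in the sample labels. None of the 8 oligodendrocyte markers passed the test, and their sum was 5694 to 7368 CPM in D95N and 6194 to 7583 CPM in WT. Of 8 astrocyte markers 4 were lower. All 7 blood cell markers were lower, with sums of 36.9 to 149 CPM in D95N and 78.8 to 306 CPM in WT, as were 5 of 8 meningeal markers, and no listed marker was at 0 in all libraries. In bulk tissue, fewer cells of a type and less RNA per cell cannot be told apart, and the part of these shifts in the results below was not tested except where a covariate is named. Rps9 itself averaged 63.1 ± 6.13 CPM in D95N and 65.3 ± 3.02 CPM in WT (SD, n = 7 and 8); gene counts do not show the substitution.

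Per transcript length, the precursors stood far above the enzymes. App averaged 602 ± 20.7 CPM per kb of its principal transcript in D95N and 587 ± 14.5 in WT (SD, n = 7 and 8, as below), Aplp1 633 ± 63.8 and 568 ± 20.3, and Aplp2 181 ± 9.01 in D95N and 192 ± 2.76 in WT. The SD ranges of App and Aplp1 overlapped in each genotype. Compared within libraries, Aplp1 was above App per length in 5 of 7 D95N libraries and in 1 of 8 WT libraries. This order per length was not tested. Next came Adam10 at 24.2 ± 2.28 CPM per kb in D95N and 23.8 ± 0.735 in WT, Ncstn at 22.0 ± 1.26 and 21.6 ± 0.559, and Bace1 at 19.7 ± 0.831 and 18.5 ± 0.602. In D95N the spreads of Adam10 and Ncstn overlapped. Psen2 stood at 6.84 ± 0.729 in D95N and 7.04 ± 0.183 in WT, Aph1a at 2.35 ± 0.264 and 2.47 ± 0.274, and Psenen at 0.627 ± 0.244 and 0.606 ± 0.221.

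**Figure D1:**
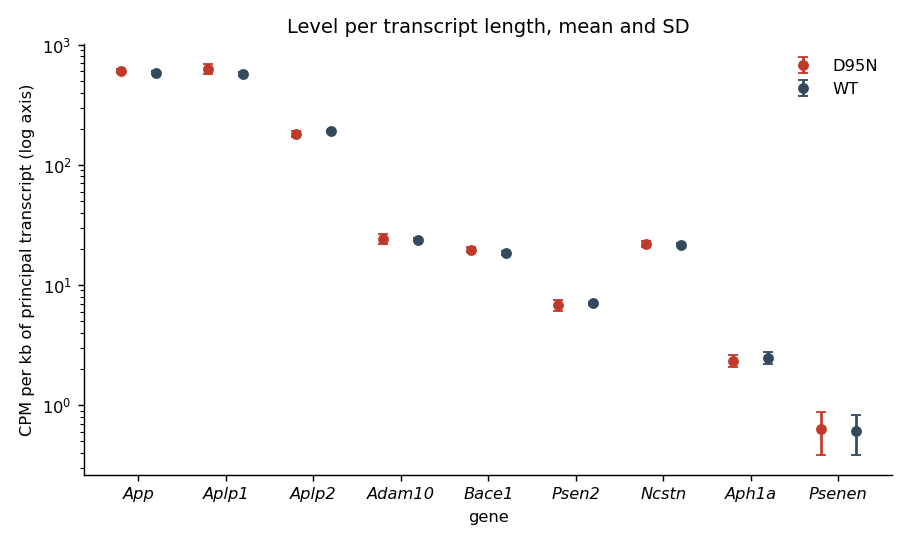
Mean CPM per kb of principal transcript on a log axis for the 9 genes, with SD bars, D95N (7 libraries) left of WT (8 libraries). The precursors sit between 181 and 633 CPM per kb and all enzyme genes below 25, and no gene is moved far by genotype on this scale.

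The levels of Psenen and Aph1a need care. Psenen had 9 to 19 reads per D95N library and 7 to 20 per WT library, and Aph1a 141 to 242 and 193 to 282. Psenen shares 119 exonic bases with U2af1l4 on the opposite strand, Aph1a 445 with Car14, Bace1 975 with Rnf214 and Ncstn 195 with Copa, all counted in the same files, and the strand setting of the count is not given in the sources used here. Reads from shared bases cannot be assigned with certainty, so these 4 levels may be set in part by the counting.

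Of the 9 genes, 2 were higher in D95N, Aplp1 and Bace1, and 0 were lower (edgeR quasi-likelihood test, Benjamini-Hochberg adjusted p under 0.05 over 14989 genes). With DESeq2 the count was 2 higher and 1 lower, and at an unadjusted p under 0.05 only Aplp2 was lower. Among all tested genes 26.8% were called, 15.2% higher and 11.6% lower, so 2 of 9 is not above the background of this contrast. The median log2 fold change was 0.03 for the 9 genes and -0.01 for all tested genes, and no member had all 7 D95N libraries above all 8 WT libraries (1.81% of tested genes) or below them (1.47%). The 3 genes nearest to or past the threshold lay between 0.943-fold and 1.12-fold.

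**Figure D2:**
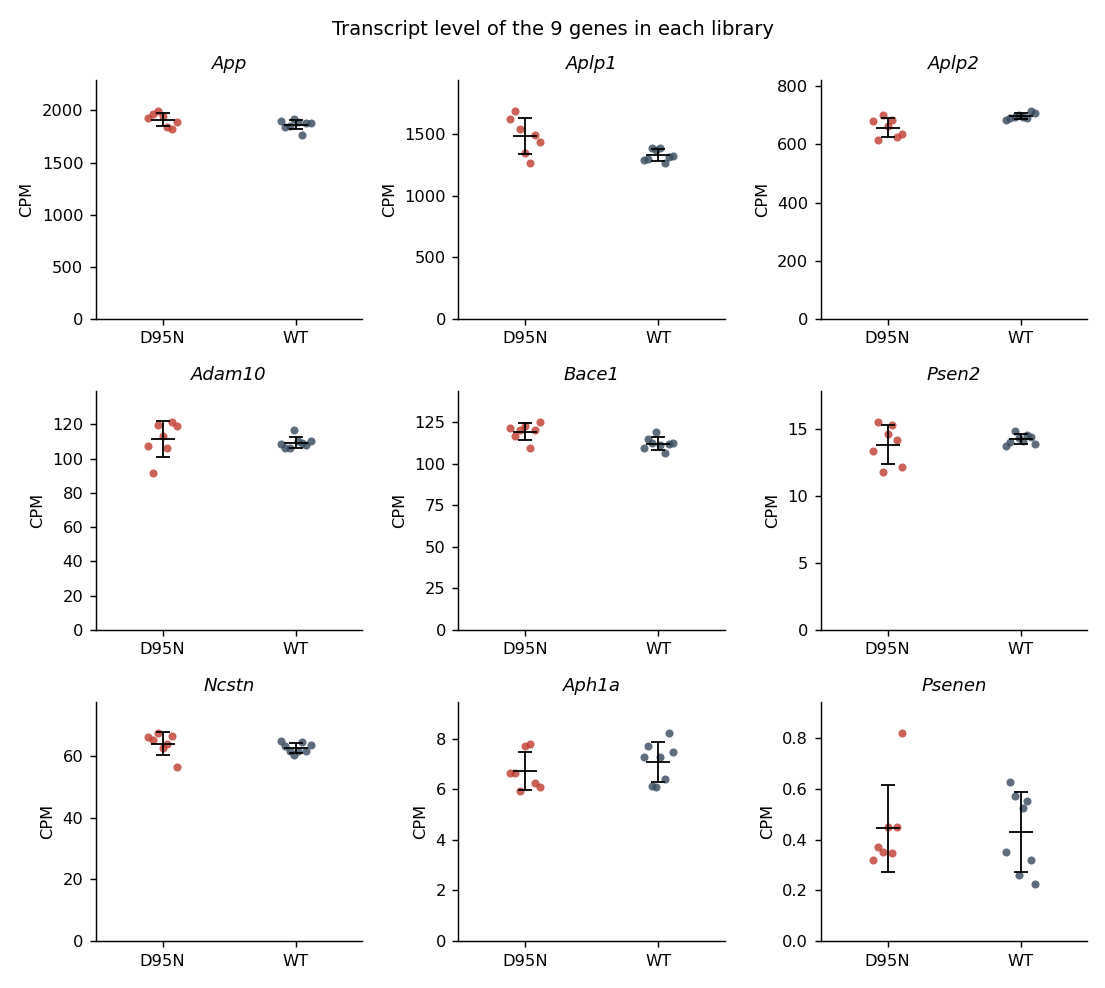
CPM of each of the 9 genes in each library, D95N left and WT right, with each axis starting at 0; points are libraries, and the dash and bars give the mean and SD. Aplp1 reaches 1689 CPM in D95N against at most 1389 CPM in WT, and Aplp2 reaches down to 616 CPM in D95N against at least 684 CPM in WT. Aplp1 and Bace1 each have 5, and App and Ncstn each have 4, of 7 D95N points above all WT points. In Aplp1, Adam10, Psen2 and Ncstn the D95N points reach beyond the WT points on both sides. In Aph1a 5 and in Psenen 6 of 7 D95N points lie within the WT range.

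App (ENSMUSG00000022892, chromosome 16, 84949685 to 85173766) gave 1923, 1968, 1996, 1951, 1841, 1821 and 1886 CPM in D95N 21, 28, 4, 41, 42, 44 and 50, against 1767 to 1916 CPM (median 1880) in WT. The 4 highest D95N libraries lay above every WT library and the other 3 within the WT range. The mean was 1912 ± 65.7 CPM in D95N and 1865 ± 46.0 CPM in WT. The fold of 1.03 had a 95% interval of 0.984 to 1.07 and did not pass (edgeR, adjusted p = 0.361; 0.205 to 0.968 over the other settings and 0.234 to 0.535 without any 1 library). App, the only member that holds the amyloid-beta stretch, thus had an interval that reached neither 0.9-fold nor 1.1-fold.

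Aplp1 (ENSMUSG00000006651, chromosome 7, 30434982 to 30445535), a precursor paralogue expressed mainly in the nervous system, gave 1620, 1689, 1544, 1350, 1262, 1490 and 1433 CPM in D95N 21, 28, 4, 41, 42, 44 and 50. In WT it gave 1267 to 1389 CPM with a median of 1319 CPM. Of the D95N libraries 5 lay above every WT library, D95N 41 lay within the WT range and D95N 42 below it, so the D95N values enclosed all 8 WT values. Aplp1 was higher by 1.12-fold, with a log2 fold change of 0.16 ± 0.05 (SE) and a 95% interval of 1.03-fold to 1.20-fold (edgeR, adjusted p = 0.0321). Its spread was wider in D95N, with a coefficient of variation of 10.1% against 3.57% in WT.

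The Aplp1 call was not stable. After correction of each library for GC content and gene length the log2 fold change was 0.07 (adjusted p = 0.236); at 59.4% GC Aplp1 has the highest GC content of the 9 genes. It also ended with upper-quartile factors (adjusted p = 0.0504), library totals (0.0539), an oligodendrocyte score in the fit (0.0871) and without the 2 shallowest libraries (0.0868). Leaving out a single library ended it for D95N 21, 28, 4 or 44 (adjusted p = 0.0708, 0.0637, 0.0565 and 0.0503) and for WT 11, 16, 32 or 8 (0.0589, 0.0543, 0.0574 and 0.0504). Without D95N 42, the library below the WT range, the log2 fold change was 0.20 (adjusted p = 0.00308).

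Aplp2 (ENSMUSG00000031996, chromosome 9, 31149557 to 31211815), the widely expressed paralogue, had the opposite sign. It gave 681, 616, 702, 663, 684, 625 and 636 CPM in D95N 21, 28, 4, 41, 42, 44 and 50, against 684 to 716 CPM (median 694) in WT. All WT libraries lay in this narrow band, 5 D95N libraries lay below it and 2 within it. The fold was 0.943 with a 95% interval of 0.902 to 0.987, and it just missed the threshold (edgeR, adjusted p = 0.0541). It passed as lower with DESeq2 (0.0262), limma-voom (0.0475), a filter of at least 5 CPM (0.0377), scaling by upper quartiles (0.0213) or totals (0.0103), and without D95N 4 (0.0266) or D95N 42 (0.0321), and the log2 fold change was negative under each of the 25 alternatives.

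Since scaling moves all 3 precursors together, pairs of genes were also compared within each library as ratios of read counts, which no scaling factor touches. There were 5 such ratios, each tested by an exact two-sided permutation test over all 6435 regroupings, with Benjamini-Hochberg adjustment over the 5. The ratio of Aplp2 to App was 0.354, 0.313, 0.352, 0.340, 0.372, 0.343 and 0.337 in D95N 21, 28, 4, 41, 42, 44 and 50, against 0.360 to 0.392 (median 0.375) in WT. In 6 of 7 D95N libraries it lay below every WT library, and D95N 42 lay inside the WT range. The ratio was 0.919-fold in D95N, a log2 difference of -0.12 (exact permutation p = 0.000932, adjusted p = 0.00466). It passed without any 1 library (adjusted p up to 0.0117), without the 2 shallowest libraries (0.0194), with medians (0.0155) and with the GC and length correction (0.0101). How often other gene pairs shift as much was not tested, in a contrast where 26.8% of tested genes were called.

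The other 4 ratios did not pass. Aplp1 to App was 0.685 to 0.858 (median 0.774) in D95N and 0.678 to 0.750 (median 0.710) in WT, with 5 of 7 D95N libraries above all WT libraries (exact permutation p = 0.0351, adjusted p = 0.0878). It passed without D95N 41 (adjusted p = 0.0208) or D95N 42 (0.0200), and its log2 difference of 0.12 was 0.0096 with the GC and length correction. Bace1 to App was 0.0593 to 0.0663 in D95N and 0.0576 to 0.0622 in WT (exact permutation p = 0.0774, adjusted p = 0.129).

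**Figure D3:**
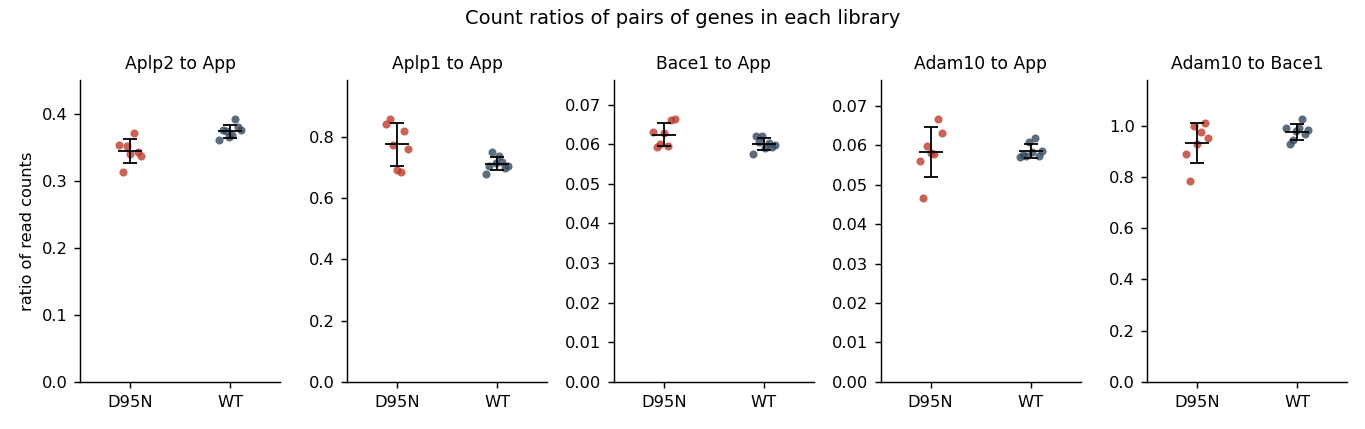
Ratio of read counts of 2 genes in each library for the 5 pairs compared, D95N left and WT right, axes from 0; points are libraries, and the dash and bars give the mean and SD. Aplp2 to App is at most 0.372 in D95N and at least 0.360 in WT, with 6 of 7 D95N points below all WT points, while the other pairs overlap more widely.

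Adam10 (ENSMUSG00000054693, chromosome 9, 70678997 to 70780229), the main alpha-secretase of neurons, gave 91.6 to 121 CPM (median 114) in D95N and 106 to 117 CPM (median 109) in WT. The D95N values enclosed all 8 WT values: 3 were higher than any WT library and D95N 28, at 91.6 CPM, lower. The fold was 1.02 with a 95% interval of 0.948 to 1.09 and did not pass (edgeR, adjusted p = 0.725).

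Bace1 (ENSMUSG00000032086, chromosome 9, 45838580 to 45864399), the beta-secretase, gave 121, 117, 120, 123, 109, 120 and 125 CPM in D95N 21, 28, 4, 41, 42, 44 and 50, against 107 to 119 CPM (median 112) in WT. Of the D95N libraries 5 lay above every WT library, and D95N 28 and 42 within the WT range. Bace1 was higher by 1.06-fold, with a log2 fold change of 0.09 ± 0.03 (SE) and a 95% interval of 1.02-fold to 1.12-fold (edgeR, adjusted p = 0.0456).

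This call sat at the threshold. It was kept by DESeq2 (adjusted p = 0.0239), RLE factors (0.0428), the stricter filter (0.0471) and the GC and length correction (0.0387), where the log2 fold change was also 0.09. With about the same log2 fold change, 0.09, the call was lost with limma-voom (0.0511), no filter (0.0573) and the oligodendrocyte score (0.0798). The log2 fold change was smaller, and not called, with upper-quartile factors (0.07, adjusted p = 0.117), library totals (0.06, 0.173) and without the 2 shallowest libraries (0.08, 0.0940). Of 15 fits without 1 library it passed in 3, those without D95N 28 (0.0412), D95N 42 (0.00807) or WT 24 (0.0275); without D95N 21, 4, 41, 44 or 50 adjusted p was 0.0739, 0.0642, 0.0729, 0.0722 and 0.0924, and without WT 11, 16, 19, 30, 32, 43 or 8 it was 0.0821, 0.0506, 0.0673, 0.0710, 0.0853, 0.0633 and 0.0668. The read count ratio of Adam10 to Bace1 was 0.785 to 1.01 (median 0.951) in D95N and 0.927 to 1.02 (median 0.981) in WT, and did not pass (exact permutation p = 0.164, adjusted p = 0.205), nor did Adam10 to App (p = 0.834). These ratios are not corrected for transcript length and measure neither protein nor enzyme activity.

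**Figure D4:**
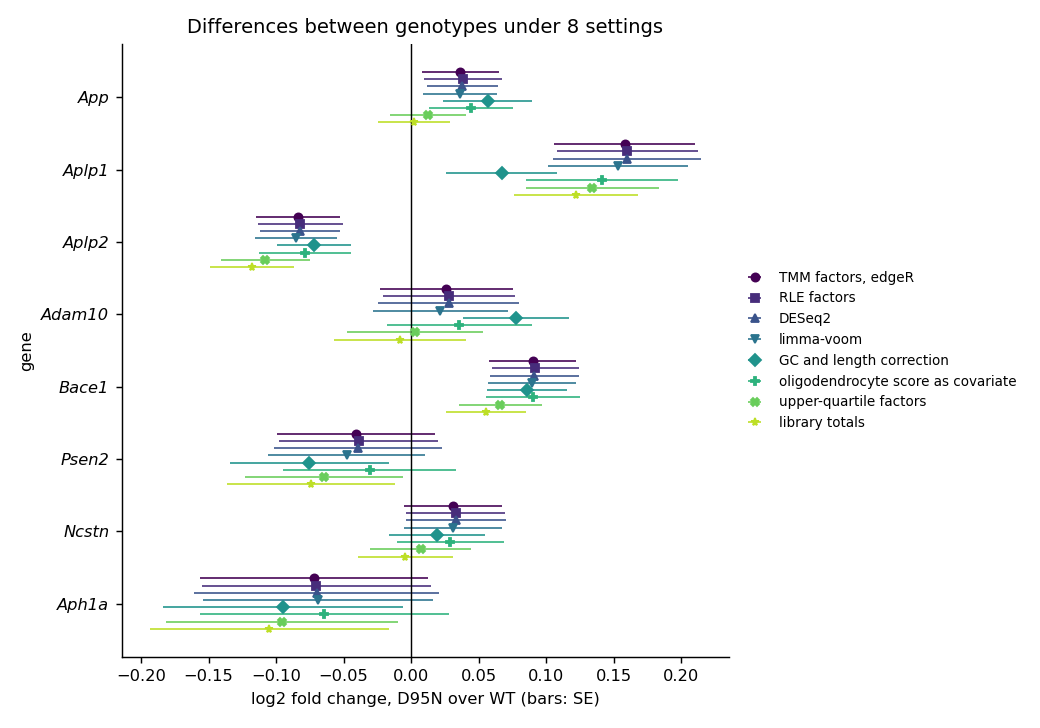
Log2 fold change, D95N over WT, with SE bars for 8 of the 9 genes (Psenen, with too few reads, is left out) under the TMM fit and 7 other settings. Aplp2 is below 0 and Bace1 above 0 in each, Aplp1 drops to 0.07 with the GC and length correction, and App, Adam10 and Ncstn stay within 0.08 of 0.

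No gamma-secretase gene among the members passed the test. Ncstn (ENSMUSG00000003458, chromosome 1, 172066013 to 172082795), which encodes the substrate-receiving subunit nicastrin, gave 56.5 to 67.3 CPM (median 65.0) in D95N and 60.2 to 64.8 CPM (median 62.4) in WT, a fold of 1.02 (95% interval 0.969 to 1.08; edgeR, adjusted p = 0.555). D95N 50 stood lowest and 4 D95N libraries above all WT libraries. Psen2 (ENSMUSG00000010609, chromosome 1, 180227004 to 180263438), a presenilin, the subunit type that carries the active site, gave 11.8 to 15.5 CPM (median 14.1) in D95N and 13.7 to 14.8 CPM (median 14.2) in WT, a fold of 0.972 (0.892 to 1.06; adjusted p = 0.634). For Psen2 the medians were nearly equal, and the D95N values spread to both sides of the WT band.

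Aph1a (ENSMUSG00000015750, chromosome 3, 95893969 to 95898288), an assembly subunit, gave 5.95 to 7.80 CPM (median 6.65) in D95N and 6.10 to 8.23 CPM (median 7.29) in WT, a fold of 0.951 (0.841 to 1.08; adjusted p = 0.554). Psenen (ENSMUSG00000036835, chromosome 7, 30561863 to 30563627), which encodes PEN-2, gave 0.320 to 0.820 CPM in D95N and 0.226 to 0.627 CPM in WT. Its 95% interval reached from 0.694-fold to 1.51-fold, and differences within it were not detectable at this depth.

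Among gamma-secretase genes outside the members, the APH-1 paralogues were lower or did not pass. Aph1c was lower at 0.825-fold, at 6.17 to 8.60 CPM in D95N and 8.12 to 10.2 CPM in WT (edgeR, adjusted p = 0.0118), and passed under all 25 alternatives. Aph1b gave 27.6 to 38.3 CPM in D95N and 33.8 to 37.0 CPM in WT and did not pass (adjusted p = 0.102; 0.00773 without D95N 42). Aph1b and Aph1c are close copies of each other in mouse, so reads may be split between them.

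The D95N libraries spread more than the WT libraries in 8 of the 9 members by SD of CPM, and in 81.3% of all tested genes. On the log2(CPM + 0.5) scale the median SD over the 9 was 0.141 in D95N and 0.0435 in WT, against 0.149 and 0.0878 over all tested genes. Over tested genes of at least 10 CPM it was 0.12 in D95N and 0.0679 in WT. Which D95N library lay at an extreme differed between genes, but some libraries recurred. D95N 28 was highest for Aplp1 and Psen2 and lowest for Aplp2 and Adam10. D95N 42 was lowest for Aplp1 and Bace1 and highest for Aph1a. D95N 4 was highest for App, Aplp2 and Ncstn and lowest for Psen2 and Aph1a. Without D95N 42, 4976 genes were called, against 4016 with all libraries.

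For 3 members, the genes were named whose log2(CPM + 0.5) kept the most constant distance from theirs over the 15 libraries, measured as the SD of the difference and taken over 10176 tested genes of at least 10 CPM. For App these were Sptan1 (SD 0.0291), Gnao1 (0.0356) and Vps16 (0.0375), where the median gene had 0.122. For Adam10 they were Agfg1 (0.0471), G3bp2 (0.0474) and Zfp397 (0.0501), against a median of 0.153. For Bace1 they were Kpna4 (0.0406), Txnrd1 (0.0426) and Kpnb1 (0.0429), against a median of 0.131. These are descriptions over libraries that share a genotype difference and carry no test.

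Around the members, 140 pathway genes on 11 lists were looked at, of which 137 were tested and 51 called (37.2%), 32 higher and 19 lower, with a median log2 fold change of 0.0018. With the oligodendrocyte score in the fit 24 were higher and 12 lower, while calls over all 14989 tested genes dropped to 2994. In the TMM fit the lists were read by their counts beside the 26.8% of all tested genes that were called, and no list was tested as a set. That share includes genes of few reads. With a filter of at least 5 CPM, 3655 of 11640 genes were called, and 31 pathway genes were higher and 20 lower. How far expression level sets these shares was not tested.

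**Figure D5:**
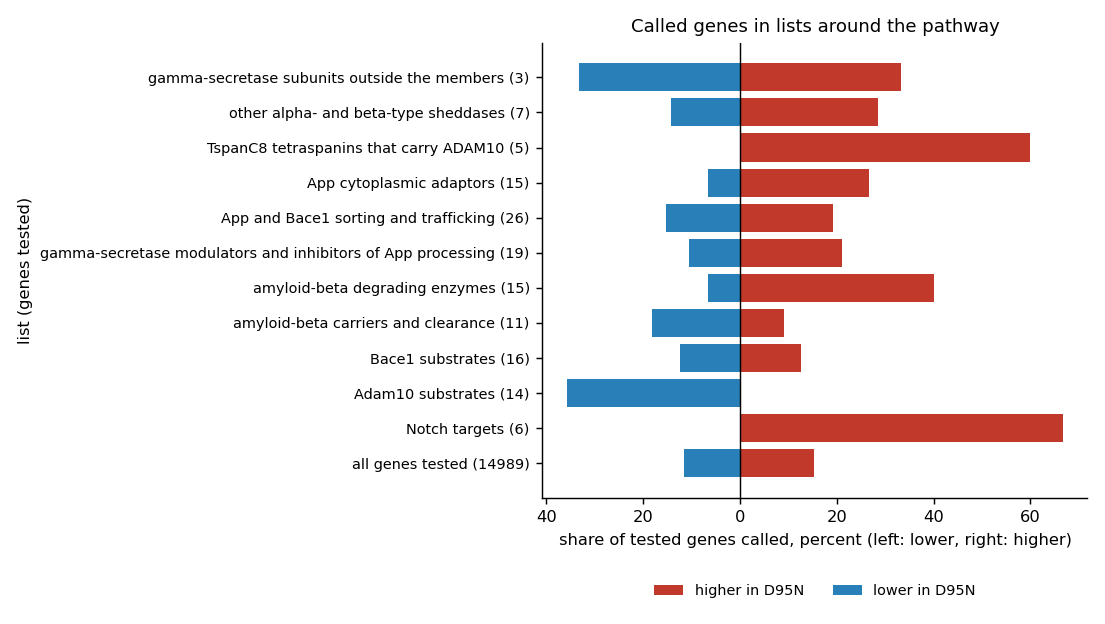
Share of tested genes called higher (right of 0) or lower (left of 0) in D95N, in percent, for 11 lists and for all tested genes, with the number tested in brackets. Adam10 substrates were called only in the lower and TspanC8 tetraspanins and Notch targets only in the higher direction, on 14, 5 and 6 tested genes.

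Of 7 tested relatives of the shedding enzymes, 2 were higher and 1, Adam22, was lower (median log2 fold change -0.05). Adam15 was 1.25-fold higher, at 101 to 129 CPM in D95N and 81.9 to 100.3 CPM in WT, without overlap (edgeR, adjusted p = 0.000704). Adam19 was 1.93-fold higher, at 18.4 to 53.4 CPM in D95N and 15.4 to 20.4 CPM in WT (adjusted p = 0.000967). Adam22, a synaptic protein of the family with no protease activity, was 0.925-fold (adjusted p = 0.0483). Its call held in 3 of 15 fits without 1 library, those without D95N 41, 42 or 44, and was lost in those without D95N 21, 28, 4 or 50 or any 1 WT library (adjusted p = 0.0540 to 0.0985). It was also lost with RLE factors (0.0527), no filter (0.0707), the oligodendrocyte score (0.123) and without the 2 shallowest libraries, where its log2 fold change of -0.11 was -0.07 (0.189). Of the TspanC8 tetraspanins, which carry ADAM10 through the cell, 3 of 5 were higher and 0 lower (median 0.21): Tspan5 at 1.38-fold (means of 259 CPM in D95N and 188 CPM in WT, adjusted p = 0.000998), Tspan17 at 1.26-fold (32.8 ± 3.89 and 26.1 ± 1.53 CPM, adjusted p = 0.00159) and Tspan14 at 1.16-fold (adjusted p = 0.0249; 0.0550 without D95N 21, 0.0743 with the oligodendrocyte score and 0.0963 without the 2 shallowest libraries). So 3 of its tetraspanin partners were higher while Adam10 itself had a 95% interval of 0.948-fold to 1.09-fold.

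Adaptors that bind the App tail were higher in 4 and lower in 1 of 15 (median 0.06), with 2 lower without D95N 42. The higher count was 3 with upper-quartile factors, library totals, the oligodendrocyte score or the GC and length correction. It was also 3 without the 2 shallowest libraries, and 5 without D95N 42 or 44. Mapk8ip1, a scaffold linking App to kinesin and kinases, rose 1.21-fold (446 ± 40.9 CPM in D95N and 368 ± 14.5 CPM in WT, edgeR, adjusted p = 0.00107) and Apbb1 (Fe65) 1.18-fold (515 ± 51.0 and 437 ± 12.2 CPM, adjusted p = 0.00300). After the GC and length correction these log2 fold changes were smaller, 0.18 against 0.28 for Mapk8ip1 and 0.14 against 0.24 for Apbb1 (adjusted p = 0.00520 and 0.0351). Dab1, the adaptor of reelin receptors, fell to 0.847-fold (90.0 ± 9.30 and 106 ± 4.51 CPM, adjusted p = 0.00463). Of 26 sorting and trafficking genes 5 were higher and 4 lower (median 0.04). The lower count was 1 without D95N 21, WT 11 or WT 16 and with the oligodendrocyte score. It was 2 with no filter, without the 2 shallowest libraries and without D95N 28, 4, 44 or 50 or WT 19, 30, 43 or 8, and the higher count was 9 without D95N 42. Sorcs1, a sorting receptor, rose 1.44-fold, at 54.4 to 84.8 CPM in D95N and 45.7 to 53.9 CPM in WT (adjusted p = 0.000333), and Sort1 (sortilin) fell to 0.863-fold (519 ± 43.4 and 602 ± 22.7 CPM, adjusted p = 0.00312). Gga2, a Golgi sorting adaptor, rose 1.32-fold (adjusted p = 0.00289).

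Among modulators and inhibitors 4 were higher and 2 lower of 19 (median -0.03), with 1 lower after the GC and length correction, with the oligodendrocyte score, without the 2 shallowest libraries and without D95N 21, 28, 41 or 44 or WT 11, 16, 19, 30 or 32. The higher count was 3 with upper-quartile factors, library totals or the GC and length correction, and 5 without WT 24. With library totals 3 were lower. Gpr3, a receptor known to raise gamma-secretase activity, rose 2.14-fold (12.3 ± 3.82 CPM in D95N and 5.71 ± 1.42 CPM in WT; edgeR, adjusted p = 0.000958). Arrb1, which encodes beta-arrestin 1, rose 1.24-fold (adjusted p = 0.00169), and Timp2, a metalloprotease inhibitor, 1.43-fold (657 ± 127 and 459 ± 32.6 CPM, adjusted p = 0.00146). Amyloid-beta degrading enzymes were higher in 6 and lower in 1 of 15 (median 0.07; 4 and 1 when scaled by totals or upper quartiles, 7 and 1 after the GC and length correction). Plat, tissue plasminogen activator, rose 1.29-fold (44.6 ± 4.45 and 34.6 ± 2.70 CPM, adjusted p = 0.000839), Ece1 1.24-fold (adjusted p = 0.00622) and Thop1 1.21-fold (adjusted p = 0.00698; log2 fold change 0.16 against 0.27 after the GC and length correction). The 1 lower gene was Mme, which encodes neprilysin, at 0.762-fold (18.9 ± 3.42 CPM in D95N and 24.8 ± 2.95 CPM in WT, adjusted p = 0.00849). Of 11 carriers and clearance genes 1 was higher and 2 lower (median -0.10), with 2 higher without D95N 28 and 0 lower without D95N 50: Abca7, a lipid transporter, rose 1.16-fold (23.4 ± 1.54 and 20.1 ± 1.05 CPM, adjusted p = 0.00301; log2 fold change 0.13 against 0.22 after the GC and length correction), while Apoe, the main brain lipoprotein, fell to 0.905-fold (1370 ± 105 and 1513 ± 65.2 CPM, adjusted p = 0.0251; 0.0532 without D95N 44 and 0.0527 without D95N 50; log2 fold change -0.24 against -0.14 after the GC and length correction). Apoe is made largely by astrocytes, and 4 of 8 astrocyte markers were lower in the same libraries. Abcb1a, an endothelial efflux pump, was 0.806-fold (adjusted p = 0.0351). It lost its call without D95N 21, 28, 41 or 50 and without WT 16, 24, 32 or 43 (adjusted p = 0.0519 to 0.0696), with the oligodendrocyte score (0.0806) and without the 2 shallowest libraries, where its log2 fold change of -0.31 was -0.19 (0.137). Of 6 endothelial markers 2 were lower.

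Genes listed as substrates of the 2 shedding enzymes were described as well. Whether BACE1 or ADAM10 cuts the listed products, Nptx1 among them, was not tested. Of 16 genes on the Bace1 substrate list 2 were higher and 2 lower (median -0.02), a share of 25.0% called. The lower count was 1 with no filter, with the oligodendrocyte score, without the 2 shallowest libraries and without any 1 library other than D95N 41 (2) or D95N 42 (3). Nptx1, a neuronal pentraxin, rose 1.70-fold (657 ± 157 CPM in D95N and 386 ± 33.3 CPM in WT; edgeR, adjusted p = 0.000651), its receptor Nptxr 1.22-fold (adjusted p = 0.00616; log2 fold change 0.185 against 0.29 after the GC and length correction), and Scn4b, a sodium channel beta subunit, fell to 0.767-fold (201 ± 27.8 and 262 ± 37.9 CPM, adjusted p = 0.00689). Of 14 Adam10 substrates 0 were higher and 5 lower (median -0.10; 0 and 6 with upper-quartile factors, library totals or the GC and length correction). The lower count was 4 without D95N 4, 41 or 50 or WT 11, 24, 43 or 8, and 6 without D95N 42. Epha4, an ephrin receptor, gave 162 to 200 CPM in D95N and 219 to 256 CPM in WT, without overlap, and fell to 0.778-fold (adjusted p = 0.000247). Robo1, an axon guidance receptor, fell to 0.847-fold (adjusted p = 0.00166).

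Notch receptors are cut by ADAM10 and gamma-secretase in turn, and their target genes were higher in 4 and lower in 0 of 6 (median 0.21; 2 with library totals or limma-voom, 3 with upper-quartile factors or no filter, and 1 with the oligodendrocyte score or without the 2 shallowest libraries). Of single libraries, leaving out D95N 21, D95N 4 or WT 11 left 1, and leaving out D95N 28 or 50 or WT 16, 19, 30, 32 or 8 left 2. Hes1, a transcriptional repressor, gave 10.8 to 15.7 CPM in D95N and 7.76 to 10.1 CPM in WT, without overlap, and rose 1.55-fold (edgeR, adjusted p = 0.000191). Hey1 rose 1.12-fold (adjusted p = 0.0277) and Nrarp 1.26-fold (adjusted p = 0.0362). The Hey1 call ended without D95N 21, 4 or 50 or WT 11 or 32 (adjusted p = 0.0508 to 0.0599). The Nrarp call ended without D95N 21, 28, 4 or 50 or WT 11, 16, 19, 30, 32 or 8 (0.0501 to 0.0855). Notch1 did not pass (log2 fold change 0.02, adjusted p = 0.823) and Notch2 was lower at 0.818-fold (adjusted p = 0.00325). Several of these genes also respond to other pathways, and whether Notch was cut more often was not measured.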

How the data were processed

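Reads were counted per Ensembl gene by the authors, and the deposited values are raw counts, 1 table per animal; per the submitters' processing notes the tools were STAR and featureCounts with GRCm38. Versions, annotation, strand setting and treatment of multi-mapping reads were not given in the sources used. Symbols, positions and lengths came from GENCODE M21, of the same build, which matched 22214 of 22524 identifiers. Groups came from the sample titles and genotype labels; batch, litter and date were not labelled, and no pair of libraries held identical counts.

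The main test was edgeR 4.0.16 (R 4.3.3), quasi-likelihood, on the deposited counts, with TMM factors, the default filter, genotype as the only term and Benjamini-Hochberg adjustment at 0.05 over all tested genes. SE was taken as log2 fold change over the root of the F statistic. CPM used TMM-scaled library sizes. Alternatives covered scaling, filters, DESeq2 1.42.0, limma-voom (limma 3.58.1), an oligodendrocyte score, a loess correction for GC content and length (span 0.3), each library left out and the 2 smallest left out; the GC and length correction of the ratios was added after the data were seen. Named pathway genes are up to 3 called genes of smallest p per list, of which some are not reported here; Aph1b, Mme, Notch1 and Notch2 were named after their values were seen. The members and lists were chosen with earlier results of these data known. Counts of depth 23349381 to 34587082 limit precision mainly for Psenen.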

Additional observations from a re-analysis of the deposited data

Results flagged for a closer look

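In 2 of 28 sets of values, 1 library lay well apart from its group; chance gives this in about 1 in 20 sets. Adam10 stood at 116.7 CPM in WT 24, with the next WT library at 110.2 CPM, and the Adam10 log2 fold change was between 0.0041 and 0.07 without any 1 library and did not pass in any of these fits. Psenen stood at 0.8195 CPM in D95N 50, from 19 reads, with the next D95N library at 0.4502 CPM. Without D95N 50 the Psenen log2 fold change was -0.16 (edgeR, adjusted p = 0.677).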

How the results depend on the processing

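No paired analysis was possible because each library came from a different animal and litter, which could pair the genotypes, was not labelled. Members called higher were 2, and 0 with upper-quartile factors, library totals, the oligodendrocyte score or without the 2 shallowest libraries, and 1 with no filter, limma-voom or the GC and length correction (0 to 2 without 1 library). Members called lower were 0, and 1 (Aplp2) with upper-quartile factors, library totals, at least 5 CPM, DESeq2 or limma-voom (0 to 1 without 1 library). Other pathway genes called were 32 higher and 19 lower (26 to 39 and 12 to 24 without 1 library), and 12 lower with the oligodendrocyte score. All genes called were 2272 higher and 1744 lower (1952 to 2694 and 1305 to 2282 without 1 library), but 1926 and 2351 with upper-quartile factors and 1808 and 2536 with library totals, so the split by direction depends on scaling. The cause of these changes was not tested.

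Direction turned, never with a call, for Adam10 (-0.00854), Ncstn (-0.00425) and Psenen (-0.000998) with library totals, and for Psenen without the 2 shallowest libraries (-0.152) and without D95N 50, WT 11, WT 24, WT 43 or WT 8 (-0.16 to 0.132 over single libraries, with -0.000514, -0.0499, -0.0177 and -0.0593 for the 4 WT libraries). The Adam10 to App log2 ratio difference turned to 0.00336 with medians, 0.0239 without the 2 shallowest libraries and 0.0202 with the GC and length correction (-0.0489 to 0.0375 without 1 library, the highest without D95N 28). The range without 1 library was 0.0918 to 0.146 for Aplp1 to App, -0.14 to -0.0989 for Aplp2 to App, 0.0388 to 0.0656 for Bace1 to App and -0.0889 to -0.0282 for Adam10 to Bace1. Of the 224 member values under alternatives, 177 kept direction and side of the threshold, 31 lost a call, 7 gained one and 9 turned. Of 32 called pathway genes followed singly, 25 kept call and direction in every alternative run. With a filter of at least 5 CPM Psenen gave no value.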
